A study of Homo sapiens with 4 samples.

Results

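The genes of the mitochondrial ribosomal proteins were followed across K562 cells with and without ZNF16 over-expression. They were taken by symbol, as every table entry named MRPL or MRPS with a number and at most 1 closing letter A, B or C. This gave 76 genes of 34692 entries, 47 named for the large subunit and 29 for the small one. RefSeq's gene table holds 75 under the same symbol and MRPS36 under the newer symbol KGD4. The table has 1 signal per symbol, so that different probes of a gene could not be set against each other.

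K562 is an established erythroleukaemic line from a chronic myelogenous leukaemia. ZNF16 encodes a zinc finger protein. Total RNA of 2 stable transductants over-expressing ZNF16 (ZNF16 replicates 1 and 2) and of 2 stable control transductants (control replicates 1 and 2) was hybridised to 4 Illumina HumanHT-12 V4.0 beadchip arrays. The vector, its promoter, and whether a transductant was 1 clone or a pool are not given in the labels. Nor do the labels say whether the transductants of a group were derived apart, so each p-value reflects only the spread between these arrays, which may be technical.

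Mitochondrial ribosomes sit in the mitochondrial matrix and translate the mRNAs of mitochondrial DNA, which encode core subunits of the respiratory chain and of ATP synthase. Their rRNAs come from mitochondrial DNA, whereas all of their proteins are encoded in the nucleus, made in the cytosol and imported. The small subunit holds the mRNA and reads the codons. The large subunit joins the amino acids and releases the new chain at the inner membrane. Many of the proteins have bacterial homologues and others are found only in mitochondrial ribosomes. Inherited variants in several of them cause mitochondrial disease.

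The arrays had mean deposited signals of 956 and 992 with ZNF16 against 998 and 972 in the controls, and between 9913 and 10762 entries per array had a detection p under 0.05. The precision rests on 2 arrays a group. Of 11 markers of K562 cells, 10 were detected on all 4 arrays, against 1 of 8 lymphoid markers and 1 of 8 fibroblast and epithelial markers. The entry for ZNF16 itself was not detected on any array, with signals of 401 and 411 in the ZNF16 group against 393 and 363 in the controls. The table therefore does not show the over-expression that the labels give. An RNA measurement of this kind cannot tell fewer expressing cells from less RNA per cell.

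Of the 76 genes, 71 entered the test (43 large-subunit and 28 small-subunit genes), 68 of them detected on all 4 arrays. Each of the 71 was detected on at least 1 array of each group, so none entered through a single group. The remaining 5, MRPL3, MRPL4, MRPL39, MRPL44 and MRPS18C, missed the detection limit. The deposited signals of the 71 ran from 484 (MRPS14) to 14802 (MRPL37), set against mean negative-control signals of 369.8 to 393.1.

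No mitochondrial ribosomal protein gene passed the test. Over all 10868 tested entries, 0 had a limma adjusted p under 0.05 (background 0%), and 834 had an unadjusted p under 0.05 (background 7.67%, 398 with higher and 436 with lower signal in the ZNF16 group). Of the 71 genes, 0 reached an unadjusted p under 0.05 with the processing used here. The smallest limma p-value among them was 0.0651, for MRPS6, and their adjusted p-values began at 0.657. Differences in log2 signal, ZNF16 minus control, ran from −0.40 for MRPS33 to 0.51 for MRPS7. The largest fold was thus 1.43, and all but 6 of the 71 genes lay between the 10th and 90th percentiles of all tested entries, −0.45 and 0.44. Differences of about this size could not be told from the spread between arrays, since their standard errors ran from 0.209 to 0.411.

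Direction was read next from the groups that did not overlap. In 21 of 71 genes (29.6%) both ZNF16 arrays lay above both control arrays, where 21.0% of all tested entries did so. In 9 genes (12.7%) both lay below, where 19.0% of all tested entries did so. The large subunit had 13 higher and 6 lower (30.2% and 13.95%), and the small subunit 8 higher and 3 lower (28.6% and 10.7%). The groups overlapped in the other 41 genes, so that 42.3% of the genes parted in either direction, where 40.0% of all tested entries did. These shares are descriptions with no test.

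The median log2 difference was 0.079 for the large subunit and 0.116 for the small subunit, against 0.011 for all tested entries, but scaling the arrays by their medians in place of quantile normalization turned both medians to the other side of 0. Under median scaling all tested entries had a median of −0.19, the large subunit −0.09 and the small subunit −0.10. Relative to all tested entries the large subunit then stood at 0.10 and the small subunit at 0.09. The split changed as well, to 0 genes higher and 24 lower (33.8%), where 5.59% of all tested entries were higher and 38.6% lower. The side of 0 on which the genes fell therefore depended on the scaling. For median scaling the array medians were taken over all 34692 entries, most of them not detected, whereas 10868 entries were tested. The inferred negative-control SD was 93.2 on ZNF16 replicate 2, against 60.5 to 67.1 on the other arrays. Whether this wider spread near the background moved the medians used for scaling was not tested.

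**Figure D1:**
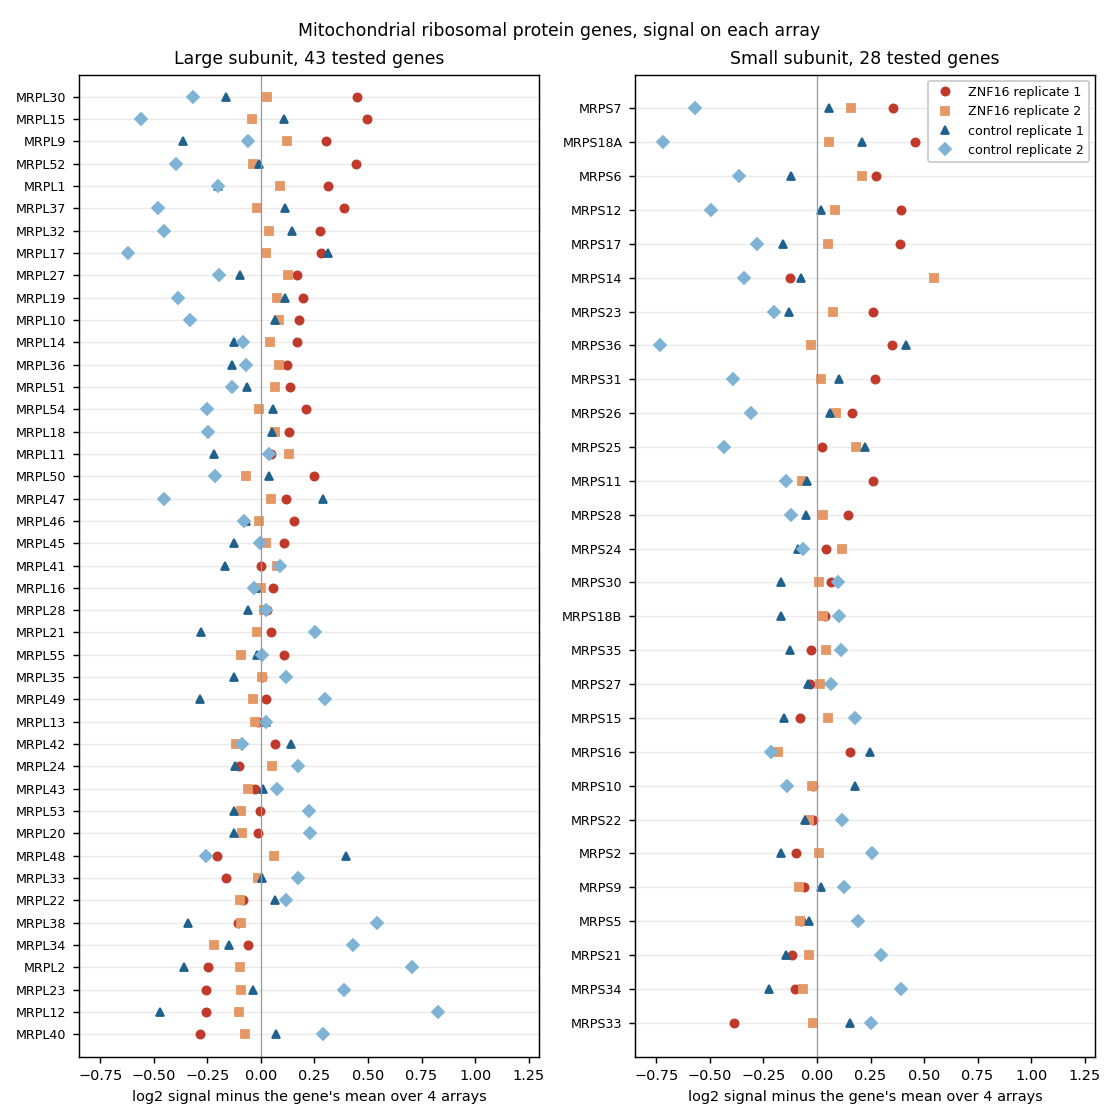
Each row is 1 tested gene and each point 1 array. The x axis gives the normalized log2 signal minus the gene's mean over the 4 arrays. Genes are ordered by the difference between groups. Control replicate 2 (light diamonds) lies at the left end of many upper rows and at the right end of many lower rows, while the other arrays lie closer together.

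Among the large-subunit genes with higher signals on both ZNF16 arrays, MRPL30 had the largest difference. It had deposited signals of 746 and 669 with ZNF16, against 629 and 625 in the controls. It was detected on 3 of the 4 arrays. The log2 difference was 0.48 ± 0.24 (SE, n = 2 arrays a group; limma adjusted p = 0.663). Without background correction that of MRPL30 was 0.21, below those of MRPL1 (0.25) and MRPL9 (0.24).

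MRPL9, a homologue of a bacterial large-subunit protein, had signals of 970 and 933 with ZNF16 and 769 and 865 in the controls. Its log2 difference was 0.43 ± 0.23 (limma adjusted p = 0.677). MRPL1 belongs to the mobile stalk beside the exit site for tRNA, and its signals were 1114 and 1043 with ZNF16 against 927 and 917 in the controls. Both control arrays were close together for this gene, and the log2 difference was 0.40 against either of them (0.40 ± 0.22 over both, limma adjusted p = 0.677).

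MRPL27, whose bacterial homologue reaches towards the peptidyl transferase centre, had signals of 1159 and 1179 against 1069 and 1004, a log2 difference of 0.30. MRPL10, the base to which the stalk proteins bind, had signals of 553 and 548 against 536 and 509, a log2 difference of 0.27. MRPL14, a protein of the interface between the subunits, had signals of 6062 and 5775 against 5411 and 5013, a log2 difference of 0.21. In all 3 the groups did not overlap, and none passed the limma threshold (adjusted p = 0.728, 0.786 and 0.816).

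The other 7 large-subunit genes whose ZNF16 arrays both lay higher were MRPL11, MRPL16, MRPL18, MRPL36, MRPL45, MRPL46 and MRPL51. Their log2 differences ran from 0.06 for MRPL16 to 0.20 for MRPL36. On the deposited scale the groups overlapped for MRPL16 (2681 and 2697 against 2690 and 2404) and MRPL18 (3872 and 3902 against 3875 and 2901). MRPL45, which ties the ribosome to the inner membrane, had signals of 2148 and 2142 against 1990 and 1928, a log2 difference of 0.13.

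Of the 6 large-subunit genes with lower signals on both ZNF16 arrays, MRPL40 had the largest difference. MRPL40 is a protein of the central protuberance with no bacterial homologue. Its signals were 2655 and 3137 with ZNF16 and 3472 and 3523 in the controls. ZNF16 replicate 1 was the low array, and the log2 difference was −0.36 ± 0.22 (SE; limma adjusted p = 0.702).

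MRPL23 and MRPL22 lie at the exit of the tunnel through which the new chain leaves. MRPL23 had signals of 3530 and 4082 against 4335 and 5126, a log2 difference of −0.35 ± 0.24 (limma adjusted p = 0.723). MRPL22 had signals of 3360 and 3469 against 3867 and 3547, a log2 difference of −0.18. Both genes were lower on each ZNF16 array than on either control array, MRPL22 by little on the deposited scale.

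MRPL33 had signals of 4376 and 4986 against 5211 and 5263, a log2 difference of −0.18. MRPL43, which has no bacterial homologue, had signals of 1069 and 1097 against 1141 and 1146, a log2 difference of −0.09. MRPL13, whose bacterial homologue binds the large rRNA early in assembly, had signals of 4357 and 4403 against 4756 and 4244. Its groups overlapped on the deposited scale and parted only after normalization, by −0.04 on the log2 scale.

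In the small subunit, MRPS7, a protein of the head domain, had the largest difference of all 71 genes with the processing used here. Its deposited signals were 2210 and 2067 with ZNF16 and 1981 and 1335 in the controls. Control replicate 2 was far below the other 3 arrays. The log2 difference was 0.51 ± 0.27 (SE; limma adjusted p = 0.674), made up of 0.20 against control replicate 1 and 0.83 against control replicate 2.

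MRPS6, whose bacterial homologue lies on the platform of the small subunit, had signals of 9637 and 9785 against 8083 and 6243, a log2 difference of 0.48 ± 0.22 (limma adjusted p = 0.657). The groups did not overlap, and both ZNF16 arrays were close together. MRPS12, the homologue of a bacterial protein of the decoding centre, had signals of 4551 and 3933 against 3817 and 2503, a log2 difference of 0.48 ± 0.27 (limma adjusted p = 0.677). Against control replicate 1 alone the difference of MRPS12 was 0.22, and against control replicate 2 it was 0.73.

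MRPS17, the homologue of a bacterial protein that binds the small rRNA early in assembly, had signals of 4643 and 3989 against 3526 and 2919, a log2 difference of 0.44. MRPS23 had signals of 1106 and 1052 against 969 and 928, a log2 difference of 0.33. MRPS26 had signals of 1880 and 1860 against 1876 and 1420, a log2 difference of 0.25. The 2 last have no bacterial homologue. For MRPS26, control replicate 1 was level with the ZNF16 arrays, so that its difference rested on control replicate 2 (0.07 against control replicate 1 alone). Its groups overlapped on the deposited scale. The other 2 small-subunit genes with both ZNF16 arrays higher were MRPS24 at 0.16 and MRPS28 at 0.17.

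MRPS33, a small protein of the head, had the most negative difference of all 71 genes with the processing used here. Its signals were 1191 and 1493 with ZNF16 and 1659 and 1626 in the controls. ZNF16 replicate 1 was the low array, and the log2 difference was −0.40 ± 0.23 (SE; limma adjusted p = 0.681). MRPS5, which lines the channel by which mRNA enters, had signals of 1633 and 1711 against 1774 and 1828, a log2 difference of −0.15. MRPS9, another head protein, had signals of 3371 and 3463 against 3703 and 3524, a log2 difference of −0.14. These 3 genes were the only ones of the small subunit with both ZNF16 arrays lower in this normalization.

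MRPS7 and MRPS33 stand at opposite ends of the order with the processing used here, and their promoter sequences are shown for that reason. The ends depended on that processing. Without background correction MRPS6 (0.46) stood above MRPS7 (0.40), and MRPL23 (−0.32) below MRPS33 (−0.30). Each runs from 250 bases before the RefSeq start site to 50 bases after it (GRCh38.p14), 5′ to 3′ on the gene's strand, at chr17:75261629-75261928 on the plus strand for MRPS7 and chr7:141014903-141015202 on the minus strand for MRPS33. Capitals mark matches to the motifs described next.
MRPS7 promoter: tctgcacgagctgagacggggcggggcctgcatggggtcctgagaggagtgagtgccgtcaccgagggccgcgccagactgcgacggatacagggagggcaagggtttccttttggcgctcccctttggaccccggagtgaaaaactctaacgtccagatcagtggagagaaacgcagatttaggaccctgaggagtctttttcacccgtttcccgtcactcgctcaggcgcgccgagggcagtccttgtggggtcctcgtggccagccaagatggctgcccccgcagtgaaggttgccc
MRPS33 promoter: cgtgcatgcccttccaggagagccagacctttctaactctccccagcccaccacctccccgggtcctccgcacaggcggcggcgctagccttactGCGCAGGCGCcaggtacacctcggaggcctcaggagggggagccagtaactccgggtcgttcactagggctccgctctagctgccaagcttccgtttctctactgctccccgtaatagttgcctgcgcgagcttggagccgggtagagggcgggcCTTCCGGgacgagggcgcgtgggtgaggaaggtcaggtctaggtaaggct

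The motifs were those of 3 kinds of factor known to bind promoters of nuclear genes for mitochondrial proteins, spelled GCGCA and GCGC with any 1 base between for NRF1, CCGGAAG for ETS factors such as GABP, and AANATGGCG for YY1. Both strands were searched, and the motifs do not overlap in the sequences shown. MRPS33 held an NRF1 match from base 96 and an ETS match, read on the other strand as CTTCCGG, at the start site. MRPS7 held no exact match to any of the 3 motifs in this window. Its stretch aagatggct differs from the YY1 motif in the last base only.

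Over all promoters of this length, 68 of the 76 genes had one in the RefSeq table. The ETS motif was in 41.2% of those 68 and in 10.7% of 27305 promoters of all genes. The YY1 motif was in 26.5% against 3.37%, and the NRF1 motif in 10.3% against 6.28%. At least 1 of the 3 was in 45 of 68 promoters (66.2%), against 17.9% of all. A match describes letters and is not a bound site.

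Set beside the expression values, the ETS motif was in 7 of 19 promoters of genes with both ZNF16 arrays higher (36.8%), in 4 of 7 of genes with both lower (57.1%) and in 15 of 37 of genes whose groups overlapped (40.5%). The YY1 motif was in 26.3%, 28.6% and 29.7% of the same promoters. The NRF1 motif was in 4 of 19, 2 of 7 and 1 of 37. These counts carry no test.

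Of the factors themselves, YY1 had a log2 difference of 0.31 with groups that did not overlap (limma adjusted p = 0.725). GABPB1, a GABP subunit, was detected on 3 arrays, with signals of 554 and 546 against 526 and 503, near the negative-control level. Its log2 difference was 0.32 (limma adjusted p = 0.733), and 0.13 against control replicate 1 alone. GABPB2 had signals of 5773 and 5912 against 7157 and 5291, a log2 difference of −0.08 with overlapping groups. NRF1 and GABPA were not detected on enough arrays to be tested.

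Grouped by place in the ribosome, the counts are of few genes each, beside 21.0% higher and 19.0% lower among all tested entries. Each place is a chosen list that does not hold every protein there, so counts and medians cover the listed genes only. The stalk and its base had 4 tested genes, of which MRPL10 and MRPL11 were higher on both ZNF16 arrays, while MRPL12 and MRPL53 overlapped. The central protuberance had 6, with MRPL18, MRPL27 and MRPL46 higher, MRPL40 lower and a median log2 difference of 0.003. The list for the tunnel exit and membrane contact had 4 tested of 6, with MRPL45 higher, MRPL22 and MRPL23 lower and a median of −0.12. Not on it were the tunnel-exit genes MRPL17 and MRPL47, both with positive differences (0.31 and 0.16) and overlapping groups. The list for the head of the small subunit had 7, with MRPS7 higher, MRPS9 and MRPS33 lower and a median of 0.02. Not on it were the head genes MRPS24, higher at 0.16, and DAP3, lower at −0.37. Under median scaling the medians of these sites ran from −0.26 to −0.16, against −0.19 for all tested entries. In none of them was a gene higher, and 1 was lower in the stalk, 2 in the central protuberance, 3 at the tunnel exit and 3 in the head. Of all tested entries, 5.59% were higher and 38.6% lower under that scaling. Of the listed genes of each site 0 passed the limma threshold, and 0 had an unadjusted p under 0.05.

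The genes were also split by homology to bacterial proteins. The 27 tested large-subunit genes with a bacterial homologue had a median log2 difference of 0.06 (10 higher, 4 lower), and the 16 without one had 0.11 (3 higher, 2 lower). The 15 small-subunit genes with a homologue had 0.16 (6 higher, 2 lower), and the 9 without one had 0.02 (2 higher, 1 lower). Of all tested entries, 21.0% were higher and 19.0% lower. No test was made of these differences between medians. Under median scaling all 4 were negative, from −0.16 to −0.09, with 0 genes higher in each and 9, 5, 5 and 5 lower in the same order. All tested entries then had a median of −0.19, with 5.59% higher and 38.6% lower.

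Some symbols do not match the place of the protein. MRPS18A and MRPS30 carry small-subunit names but were found in the large subunit of the mammalian mitochondrial ribosome, and MRPS36 is now assigned to the oxoglutarate dehydrogenase complex. MRPS18A had signals of 1961 and 1626 with ZNF16 and 1801 and 1086 in the controls. Its groups overlapped, and its log2 difference of 0.51 ± 0.35 (limma adjusted p = 0.721) was 0.05 against control replicate 1 alone. MRPS18B, its paralogue in the small subunit, had signals of 2540 and 2631 against 2377 and 2507, a log2 difference of 0.06. MRPS30 had signals of 5292 and 5370 against 4975 and 5321, a log2 difference of 0.07. For both, after normalization control replicate 1 lay below the ZNF16 arrays and control replicate 2 above them, and both differences turned negative under median scaling and without control replicate 1.

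MRPS36 had signals of 693 and 632 against 727 and 544, with the control arrays on either side of the ZNF16 arrays. Its log2 difference was 0.32 ± 0.39 (SE; limma adjusted p = 0.841), and −0.25 without control replicate 2. With the genes placed by structure and MRPS36 left out, the large subunit had a median log2 difference of 0.08 over 45 genes and the small subunit 0.06 over 25 genes.

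**Figure D2:**
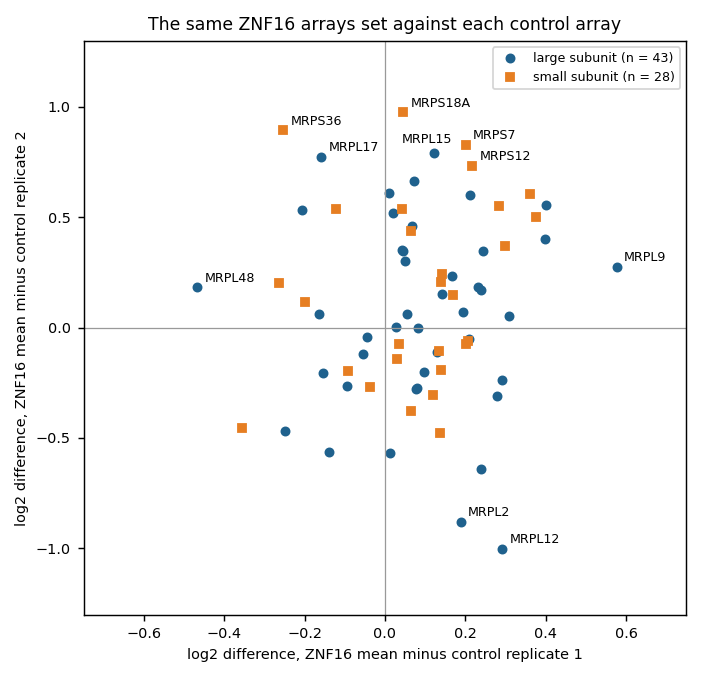
Each point is 1 of the 71 tested genes, circles for the large and squares for the small subunit. The x axis is the log2 difference of the ZNF16 mean from control replicate 1, and the y axis that from control replicate 2. In 42 genes both differences have the same sign, and in 29, such as MRPL12, MRPL2 and MRPS36, they have opposite signs.

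The control arrays lay further apart than the ZNF16 arrays. The log2 gap between replicates had an SD over the 71 genes of 0.46 for the controls and 0.20 for ZNF16. Over all tested entries it was 0.52 and 0.34. The control arrays were at least 1.5-fold apart in 15 of 71 genes (21.1%; 23.8% of all tested entries), and the ZNF16 arrays in 1, MRPS14 (1.41%; 8.92% of all tested entries). Control replicate 2 was the lowest array in 33 genes (46.5%; 35.4% of all tested entries) and the highest in 28 (39.4%; 32.1%). Whether that array differed through its cells, its RNA or its hybridisation was not tested.

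MRPL12, a stalk protein that also binds the mitochondrial RNA polymerase, showed this most. Its signals were 2094 and 2411 with ZNF16, 1965 on control replicate 1 and 3803 on control replicate 2. The controls were thus 2.45-fold apart after normalization, on either side of the ZNF16 arrays. The log2 difference was 0.29 against control replicate 1 and −1.002 against control replicate 2, and −0.36 ± 0.41 over both (SE; limma adjusted p = 0.834).

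MRPL2, whose bacterial homologue lies next to the peptidyl transferase centre, had signals of 1759 and 1985 against 1739 and 2914. Its log2 difference was 0.19 against control replicate 1 and −0.88 against control replicate 2. MRPL17 ran the other way, with signals of 2639 and 2378 against 2840 and 1546, and differences of −0.16 and 0.77. MRPL37, which has no bacterial homologue, had signals of 14802 and 12069 against 13605 and 8103. Its difference was 0.37 over both controls and 0.07 against control replicate 1 alone.

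The signs against the 2 control arrays were the same in 42 of 71 genes (59.2%), where 60.7% of all tested entries had the same sign. At least 1.25-fold higher against each control array were 4 genes, MRPL1, MRPL30, MRPS6 and MRPS17 (5.63%; 6.74% of all tested entries). At least 1.25-fold lower against each was 1 gene, MRPS33 (1.41%; 7.30% of all tested entries). None of the 5 passed the limma threshold, with adjusted p-values from 0.657 to 0.681.

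Leaving out control replicate 2 gave 41 genes with both ZNF16 arrays above control replicate 1 and 17 with both below it (57.7% and 23.9%; 36.4% and 34.8% of all tested entries). Leaving out control replicate 1 instead gave 39 above and 29 below (54.9% and 40.8%; 42.0% and 38.7%). The median log2 differences were then 0.08 and 0.06 for the large subunit and 0.13 and 0.17 for the small one, in that order.

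Among 13 genes in which inherited variants cause mitochondrial disease, 11 were tested. Both ZNF16 arrays were higher in 3 of them, MRPS7, MRPS23 and MRPS28, and lower in none (27.3% and 0%; 21.0% and 19.0% of all tested entries), with a median log2 difference of −0.03. With control replicate 2 left out the median came to 0.14, and with control replicate 1 left out to 0.20. Median scaling gave 0 higher, 4 lower and a median of −0.18, where all tested entries had 5.59% higher, 38.6% lower and a median of −0.19. MRPS14, a head protein, had signals of 499 and 586 against 493 and 484, a log2 difference of 0.42, and its high value stood on ZNF16 replicate 2 alone. MRPS22 had signals of 7360 and 7689 against 7718 and 7757, a log2 difference of −0.06. MRPS16 had signals of 3972 and 3366 against 4500 and 2976, a log2 difference of −0.03, with the control arrays on either side of both ZNF16 arrays.

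MRPS2 (−0.09), MRPS25 (0.21), MRPS34 (−0.17) and MRPL24 (−0.05) also belong to this list, all with overlapping groups on the log2 scale, as does MRPL12, described above. Without control replicate 2 the signs of all 4 turned, to 0.12, −0.12, 0.14 and 0.10.

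The 5 untested genes were examined for the reason they missed the limit. MRPL3 had signals of 4596 and 4348 with ZNF16 and 3992 and 3304 in the controls, far above the negative controls, yet a detection p over 0.05 on every array. Its detection p-values lay on the steps that a sum of p-values from 2 probes would give, with summed p-values of 0.794, 0.651, 0.904 and 0.965. MRPS18C, with signals of 4485 and 4189 against 4036 and 3430, also had detection p-values on the steps of 2 probes, as did MRPL39, and MRPL4 those of 3. MRPL44, with signals of 455 to 483 on the 4 arrays, was dim throughout, and its detection p-values also lay on the steps of 2 probes.

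A filter on signal in place of detection p, chosen after these values were seen, let 73 genes be tested. It took in MRPL3, MRPL4, MRPL39 and MRPS18C and dropped MRPL10 and MRPS14. MRPL3 then had a log2 difference of 0.31 ± 0.20 (limma adjusted p = 0.679) and MRPS18C 0.21 ± 0.20 (limma adjusted p = 0.762), with both ZNF16 arrays above both control arrays in each. MRPL39 stood at −0.16 and MRPL4 at −0.002, both with overlapping groups. Under this filter 22 of the 73 genes were higher and 9 lower (30.1% and 12.3%; 21.99% and 20.1% of all entries tested under it).

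Mitochondrial ribosomal proteins with other names stood alongside. DAP3, a GTP-binding protein of the small subunit, had signals of 3621 and 4769 against 5136 and 5493, a log2 difference of −0.37 ± 0.25 (limma adjusted p = 0.716) with groups that did not overlap. AURKAIP1 had signals of 14131 and 11028 against 13274 and 7291, a log2 difference of 0.36 that was −0.02 without control replicate 2. CHCHD1 stood at 0.04, ICT1, a peptidyl-tRNA hydrolase within the large subunit, at 0.03 and MRP63 at −0.19, all with overlapping groups, while GADD45GIP1 and PTCD3 were not detected.

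The ribosome needs assembly factors, translation factors, charged tRNAs and transcription of its rRNAs, and these genes were set beside the ribosomal proteins. The counts that follow stand beside 21.0% higher and 19.0% lower among all tested entries, or 5.59% and 38.6% under median scaling. Of 20 tested assembly and rRNA maturation genes, 8 were higher and 5 lower on both ZNF16 arrays (40% and 25%; median log2 difference 0.11), and 0 passed the limma threshold (1 had an unadjusted p under 0.05). With control replicate 2 left out that median came to 0.03, and with control replicate 1 left out to 0.23. Under median scaling it turned to −0.12, with 0 higher and 6 lower. RNMTL1, a methyltransferase of the large mitochondrial rRNA, stood at 0.68 and DDX28, a helicase of large-subunit assembly, at 0.47. MPV17L2, also known from large-subunit assembly, stood at −0.81 and C18ORF22, whose product binds the small subunit during assembly, at −0.32. MPV17L2 had signals of 489 and 525 against 583 and 668, near the negative-control level (limma unadjusted p = 0.0131, adjusted p = 0.528).

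Of 13 tested translation factors, both ZNF16 arrays were above the controls in 3 and below them in 2 (23.1% and 15.4%; median log2 difference 0.008). Median scaling gave 1 above, 6 below and a median of −0.27. MRRF, the ribosome recycling factor, had signals of 1088 and 1019 against 854 and 767, a log2 difference of 0.70 (limma unadjusted p = 0.0213, adjusted p = 0.582). TACO1, an activator of translation of a cytochrome oxidase mRNA, stood at 0.46, MTIF3, an initiation factor, at −0.31, and OXA1L, the insertase of the inner membrane, at −0.25. None passed the limma threshold, and MRRF alone had an unadjusted p under 0.05.

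Of 18 tested mitochondrial tRNA synthetase and amidotransferase genes, 4 were higher and 1 lower on both ZNF16 arrays (22.2% and 5.56%). Their median log2 difference of 0.30 became 0.14 with control replicate 2 left out and 0.42 with control replicate 1 left out. Median scaling gave 4 higher, 3 lower and a median of 0.02. YARS2 had signals of 2866 and 2749 against 1817 and 2015, a log2 difference of 0.63 (limma adjusted p = 0.620), and RARS2 stood at −0.20. PARS2, with signals of 506 and 479 against 397 and 435, was detected on the ZNF16 arrays only and so was tested through the group in which it was high. Its log2 difference of 0.62 is therefore no support for a direction. Without it, 3 of 17 synthetase genes were higher and 1 lower.

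Of 10 tested genes for transcription and replication of mitochondrial DNA, 4 were higher and 0 lower (40% and 0%), with a median of 0.11 that was 0.30 without control replicate 1. The 4 include MTERF, which also was detected on the ZNF16 arrays only, and without it 3 of 9 were higher with a median of 0.02. Median scaling turned the split to 0 higher and 2 lower, with a median of −0.10. POLG, the mitochondrial DNA polymerase, stood at 0.32 and TFAM, which packs that DNA and serves its transcription, at 0.30.

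Of 8 tested nuclear regulators, 4 were higher and 0 lower (50% and 0%), with a median of 0.21 that was 0.13 without control replicate 2. Median scaling gave 1 higher, 1 lower and a median of 0.03. PPRC1, a relative of the coactivator PGC-1, had signals of 1562 and 1580 against 1145 and 911, a log2 difference of 0.93 ± 0.25 (limma unadjusted p = 0.00794, adjusted p = 0.455). HCFC1, a partner of transcription factors at many such promoters, stood at 0.54. No gene of the synthetase, mitochondrial DNA and regulator lists passed the limma threshold, and an unadjusted p under 0.05 was found for YARS2, PARS2 and PPRC1.

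**Figure D3:**
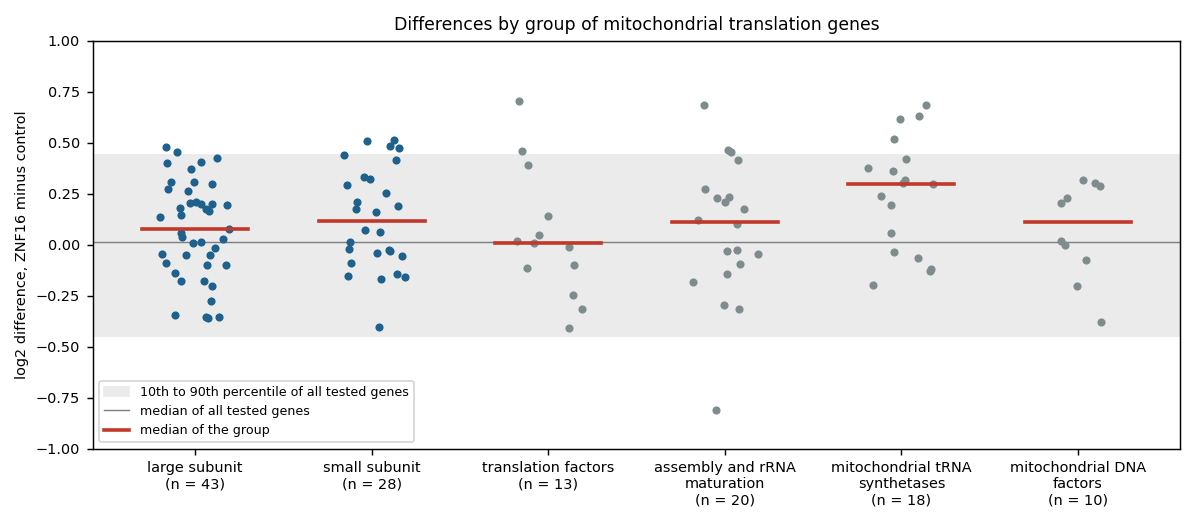
Log2 differences, ZNF16 minus control, of single genes in 6 groups, with red bars for group medians. The grey band is the 10th to 90th percentile of all 10868 tested entries. The ribosomal proteins of both subunits stay mostly inside the band, with medians of 0.079 and 0.116 that turn negative under median scaling. The tRNA synthetases have a median of 0.30, which was 0.02 under median scaling and 0.14 without control replicate 2.

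Cytosolic ribosomal proteins and subunits of oxidative phosphorylation served as comparators. The 78 tested cytosolic ribosomal protein genes had a median log2 difference of −0.01, with 20 higher and 11 lower on both ZNF16 arrays (25.6% and 14.1%; 21.0% and 19.0% of all tested entries). The 73 tested genes of oxidative phosphorylation had a median of −0.12, with 8 higher and 20 lower (10.96% and 27.4%). Without control replicate 2 the medians were 0.04 for the cytosolic ribosomal proteins and −0.04 for oxidative phosphorylation. Beside them stand the 21 higher and 9 lower of 71 mitochondrial ribosomal protein genes. The difference between these lists was not tested, and 0 genes of either comparator passed the limma threshold (unadjusted p under 0.05 in 2 cytosolic genes and 0 of oxidative phosphorylation). Under median scaling the medians were −0.25 for the cytosolic ribosomal proteins, with 3 higher and 49 lower, and −0.30 for oxidative phosphorylation, with 0 higher and 50 lower. All tested entries then had a median of −0.19, with 5.59% higher and 38.6% lower.

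**Figure D4:**
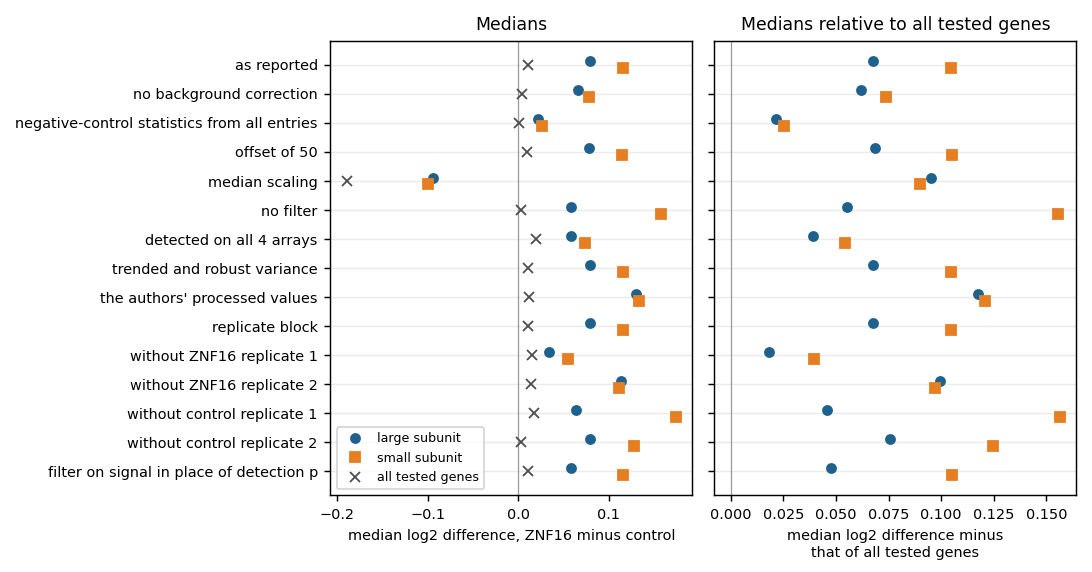
Median log2 differences of both subunits and of all tested entries under each way of processing. The right panel gives the subunit medians minus that of all tested entries. Left of 0 in the left panel are only the values under median scaling, while every subunit median in the right panel lies right of 0, between 0.02 and 0.16.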

How the data were processed

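The deposited signals are linear bead intensity values from GenomeStudio 2010.2, per the submitters' processing notes, each with a detection p-value per the file headers. For the combining of probes into 1 entry per symbol, the genome build and the annotation, nothing is stated in the labels or headers. The authors' processed intensity values, linear and shifted and scaled by array as judged from the values, served as an alternative.

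Background was corrected by normexp in limma 3.58.1 (R 4.3.3). Negative-control means and SDs were inferred from detection p-values of the 27095 entries on single-probe steps of 1 in 770 (tolerance 0.002). An offset of 16 was added before quantile normalization and log2. Entries with detection p under 0.05 on at least 2 of 4 arrays were tested (10868), with lmFit and eBayes, two-sided, with Benjamini-Hochberg adjustment over all of them. The script was tested on simulated data. Groups were taken from the sample titles. Groups of 2 allow no exact permutation p under 0.333.

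Members and lists were chosen with earlier results of these data known. Named were, per subunit, the 6 largest differences in each direction without overlap and the entry of highest mean signal, the MRPS18 paralogues, MRPS30, MRPS36, the stalk and disease genes, ribosomal proteins under other names, and up to 2 in each direction without overlap from each other mitochondrial list. MRPL2, MRPL17, MRPL45, MRPS24 and other genes outside this rule were chosen after their values were seen. Promoters are RefSeq's (GRCh38.p14), 1 for each gene. Proteins of the MRPS18 paralogues were not used here. Alternatives changed the background correction, offset, scaling, filter, variance model, input values, replicate block, arrays and subunit lists.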

Additional observations from a re-analysis of the deposited data

How the results depend on the processing

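No mitochondrial ribosomal protein gene passed the limma threshold under any of the alternatives run. The count of the 71 genes with a limma unadjusted p under 0.05, 0 as reported, changed with the processing. It was 2 with no background correction (7.28% of all tested entries) and 1 under median scaling (12.3%). When all entries gave the negative-control statistics it was 9 (6.46% of all tested entries). Of 792 values of 57 named genes under alternatives, 764 kept their direction and 28 changed it, in 17 genes. Part of this count was fixed in advance. Changes of the filter, the variance model or the replicate block left the log2 differences as they were, so no direction could turn. Leaving out an array could not turn a gene whose groups did not overlap, and many genes were named for that reason. The count is therefore no measure of how stable the directions are. The 2 arrays a group and the spread between the control arrays limit every value, and dim genes such as MRPL10 and MRPS14 lie close to the negative controls. The cause of the changes below was not tested.

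Entries past the limma threshold numbered 3 with an offset of 50, 7 under median scaling, 3 with a trended and robust variance and 3 with the filter on signal, which was chosen after seeing the data. Leaving out 1 array in turn gave 0 to 2. With the replicate number as a block 114 entries passed, 42 higher and 72 lower, none of them a mitochondrial ribosomal protein gene. The numbers are shared labels only. Deviations of same-numbered arrays correlated at 0.193, and with 2 arrays a group this is the same for both numbers.

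Under median scaling 0 genes of the 71 were higher and 24 lower on both ZNF16 arrays (0% and 33.8%; 5.59% and 38.6% of all tested entries). The subunit medians were −0.094 (large) and −0.10 (small). When all entries gave the negative-control statistics, the medians were 0.022 and 0.026. The large-subunit median was 0.13 with the authors' processed values. The small-subunit median was 0.16 with no filter, 0.073 for genes detected on all 4 arrays, 0.064 by place in the ribosome and 0.073 with proteins of other names added. Leaving out 1 array in turn gave 22 to 41 genes higher (31.0% to 57.7%; 31.1% to 42.0% of all tested entries). It gave 9 to 29 lower (12.7% to 40.8%; 28.9% to 38.7% of all tested entries). With 2 arrays set against 1, groups part more often. Without ZNF16 replicate 1, 31.0% of the genes were higher, where 31.1% of all tested entries were. The large-subunit median ran from 0.033 to 0.11 and the small-subunit median from 0.054 to 0.17.

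Under median scaling the log2 difference turned to −0.088 for MRPS18B, −0.13 for MRPS30, −0.11 for MRPS28, −0.12 for ICT1 and −0.20 for CHCHD1. With the authors' processed values it turned to 0.0036 for MRPL13, 0.029 for MRPL24, 0.046 for MRPS16 and 0.0013 for MRPS22.

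Among the genes named by rule, leaving out 1 array in turn moved the log2 difference across 0 in 15, and over all 71 genes the sign differed between the 2 control arrays in 29. It ran from −0.073 to 0.20 for MRPS18B, from −0.060 to 0.21 for MRPS30, from −0.26 to 0.20 for MRPS16, from −0.092 to 0.14 for ICT1 and from −0.048 to 0.12 for CHCHD1. It ran from −0.25 to 0.90 for MRPS36, from −1.002 to 0.29 for MRPL12, from −0.28 to 0.079 for MRPL53, from −0.20 to 0.096 for MRPL24 and from −0.30 to 0.12 for MRPS2. It ran from −0.14 to 0.030 for MRPS22, from −0.12 to 0.54 for MRPS25, from −0.48 to 0.14 for MRPS34, from −0.47 to 0.088 for MRP63 and from −0.016 to 0.74 for AURKAIP1.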
